A study of Mus musculus with 12 samples.

Results

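Imprinted genes are transcribed mainly from the copy inherited from 1 parent, because a DNA methylation mark set in the egg or the sperm silences or activates the other copy in cis. Many lie in clusters in which a methylated control region and a long noncoding RNA act on several genes at once, and many act on the growth of the embryo and placenta. Maternally expressed genes such as Cdkn1c, Grb10 and Igf2r tend to restrain growth, whereas paternally expressed genes such as Igf2, Dlk1, Peg3 and Mest tend to favor it. The 32 imprinted genes described here were a fixed list of genes known in the mouse embryo, read from a table of 24100 genes. They comprised 11 maternally expressed genes, 17 paternally expressed genes and 4 genes (Gnas, Ddc, Copg2 and Dio3os) whose imprint depends on the transcript or tissue or is not settled.

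RNA was sequenced from mouse embryonic fibroblasts (MEFs), cells grown from mid-gestation embryos and, per the study's methods, immortalized with SV40 large T antigen. Wild type (WT, Rtf2+/+) MEFs were compared with RTF2-deficient MEFs (Rtf2-/lox), which carry a null and a floxed allele of Rtf2, a gene for a protein of the replication machinery. Both genotypes received a Cre retrovirus and were harvested 72 hrs later. There were 2 lines from different mothers and, for each line and genotype, 3 replicates that the study calls technical, giving 12 libraries. Each line is 1 embryo of each genotype. In fits of the 4 groups a p-value measures the spread between these replicates. In the fit over both lines it also takes in the difference of the genotype effect between lines. Pairs of libraries within a group had a chi-square per degree of freedom of 20.5 to 180, beyond counting error. Whether they were separate cultures is not given in the sources used here. The mapping gives no allele of origin, so the values are the sum of both parental copies.

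Library totals lay between 39360167 and 44695002 counts. Rtf2 was at 44.8 to 57.8 CPM (counts scaled by TMM-normalized library size) in the 6 WT libraries and at 5.45 to 6.66 CPM in the 6 RTF2-deficient libraries. The 10 fibroblast markers together were at 19140 to 31710 CPM, while the summed markers of liver, trophoblast and germ cells stayed at or under 0.220, 0.674 and 0.287 CPM. Lum and Dcn of the fibroblast list had only 5 to 70 and 16 to 93 counts per library. The neural list was mainly Tubb3 and Map2, with Sox10 at 0 to 6 counts. Summed markers reached 66.4 to 133.4 CPM for neural cells, 10.65 to 21.5 for endothelium, 3.27 to 18.55 for muscle, 2.43 to 9.66 for blood and 0.471 to 3.41 for epithelium. Of these, the epithelial Cldn4 was called higher over both lines, at up to 0.866 CPM, and the neural Sox2 and blood Cd68 were called lower in line 2, with group means of 9.51 and 3.35 CPM for Sox2 and 6.72 and 3.21 CPM for Cd68 in WT and RTF2-deficient MEFs. Some other tested markers of these lists had values of the opposite sign that did not pass, with log2 fold changes in line 2 of 0.86 for Tubb3 (edgeR adjusted p = 0.0539) and 0.76 for Csf1r (0.187), and over both lines of -0.34 for Epcam (0.547) and -0.18 for Cdh1 (0.887). The endothelial markers were at 10.65 to 14.66 CPM in WT and 17.56 to 21.5 in RTF2-deficient line 1 and at 13.16 to 15.49 and 13.92 to 18.26 in line 2. Kdr passed the adjusted p alone over both lines (0.58, edgeR adjusted p = 0.0492). Tek, the other endothelial marker tested, was at -0.03 over both lines, 0.67 in line 1 and -0.75 in line 2, and did not pass. The muscle gene Des had means of 7.35 and 15.6 CPM in line 2 (edgeR adjusted p = 0.0677), and the part of these cell types in the values that follow was not tested. WT line 2 had the sex-linked values of a male, with Xist at 0.0217 to 0.132 CPM and Ddx3y at 91.8 to 106.7 CPM, and the other 3 groups had those of a female, with Xist at 102.9 to 172.8 CPM and Ddx3y at up to 0.195 CPM. In line 2, genotype and sex therefore cannot be told apart. WT line 2 also had the most transcripts of 10 interferon-stimulated genes, 564.7 to 6352 CPM in sum, against 65.2 to 382.5 in WT line 1, 60.7 to 133.8 in RTF2-deficient line 1 and 104.1 to 2408 in RTF2-deficient line 2.

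The largest changes fell on 2 loci, and their start regions are shown because both involve genes transcribed away from each other. Peg3 and Usp29 start back to back on chromosome 7, and the 96 bases between the outermost RefSeq bounds of both genes follow on the plus strand of GRCm38.p6, chr7:6730463-6730558, with the matches to CCAAT (the box bound by NF-Y) in capitals.
Peg3-Usp29: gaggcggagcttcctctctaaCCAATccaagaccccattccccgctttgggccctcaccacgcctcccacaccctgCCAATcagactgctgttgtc
The next sequence is the 250 bases before the start of Dio3, on the plus strand of chr12:110278980-110279229. Capitals mark CCAAT and TATAAA (the TATA box), on either strand and without overlaps between motifs.
Dio3: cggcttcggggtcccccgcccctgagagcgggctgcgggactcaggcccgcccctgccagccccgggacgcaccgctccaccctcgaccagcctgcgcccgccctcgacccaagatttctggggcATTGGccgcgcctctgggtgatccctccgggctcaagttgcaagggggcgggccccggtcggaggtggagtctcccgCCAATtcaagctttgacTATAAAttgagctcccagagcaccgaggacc
Over 32851 RefSeq windows of 250 bases before a start, 33.8% hold CCAAT and 12.4% hold TATAAA, and 18.3% of the windows hold CCAAT in the 96 bases next to the start, so a match is a description only. Also searched were TGCCGC (the hexamer bound by ZFP57, a zinc finger protein that maintains imprints), held by 8.68% of all windows, and TGACGTCA (the cAMP response element), held by 1.55%, and neither is in the regions shown. The window before Dio3os, which is transcribed away from Dio3, holds 44 CpG dinucleotides and that before Dio3 21, against a median of 6 over all windows.

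All 32 genes were in the table, and 28 passed the filter on low counts. The 4 below it were Ascl2 (at most 4 counts per library), Ddc (8), Phlda2 (9) and Rtl1 (12), genes best known from placenta, muscle or the nervous system. Per kilobase of exon, the mean level in the 6 WT libraries was 109.8 CPM for H19, the growth-restraining noncoding RNA, 94.5 for Grb10, an adaptor that damps insulin signaling, 90.8 for Gnas, the stimulatory G protein subunit, and 36.2 for Igf2r, the receptor that clears IGF2. Igf2 itself stood at 7.38 CPM per kb and Dlk1, a noncanonical Notch ligand, at 10.7. The level per kb was 0.334 CPM for Kcnq1ot1 and 0.598 for Airn, the noncoding RNAs that silence their clusters, and Usp29 was the lowest at 0.0164.

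**Figure D1:**
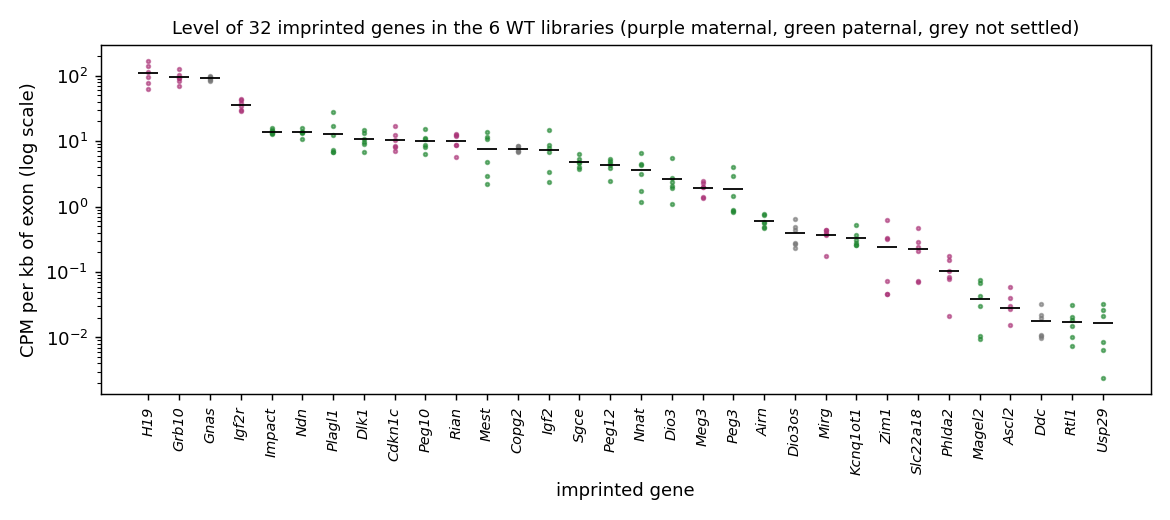
Level of the 32 imprinted genes in CPM per kilobase of exon (log axis) in the 6 WT libraries, points, with the mean as a bar; a library without a count is not drawn. H19, Grb10 and Gnas lead at 90.8 to 109.8 and Usp29 is last at 0.0164.

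The first comparison asked how the imprinted genes differed between RTF2-deficient and WT MEFs over both lines. Dio3 and Dio3os fell, and Peg3, Usp29, Zim1 and Cdkn1c rose. A gene was called when its edgeR quasi-likelihood p, adjusted by Benjamini-Hochberg over all genes tested, was under 0.05 and its log2 fold change was beyond 1. By that rule 6 of 28 tested imprinted genes were called, against 1.72% of all genes. The 2 lower genes compare with 1.22% of all genes and the 4 higher genes with 0.505%. By the adjusted p alone, 7 of 28 passed, the 7th being Mest, against 13.2% of all genes. When the 3 technical replicates of each group were summed, which leaves 4 samples, no gene of the table and no imprinted gene was called by edgeR, and 11 imprinted genes had an unadjusted p under 0.05. Without the 3 WT line 2 libraries, which leaves line 1 to carry the genotype effect, only Dio3 was called.

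Called genes came from both parental classes. Among the 9 maternally expressed genes tested, 2 rose (Zim1 and Cdkn1c), none fell, and the median log2 fold change was 0.10. Among the 16 paternally expressed genes tested, 2 rose (Peg3 and Usp29), 1 fell (Dio3), and the median was 0.08. The median over all genes tested was 0.00. The paternally expressed genes spread more, with a median absolute log2 fold change of 0.46 against 0.16 for the maternally expressed genes and 0.15 for all genes. Of the 28, 12 had values above 0 in both lines, 7 below 0 in both lines and 9 of opposite sign.

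**Figure D2:**
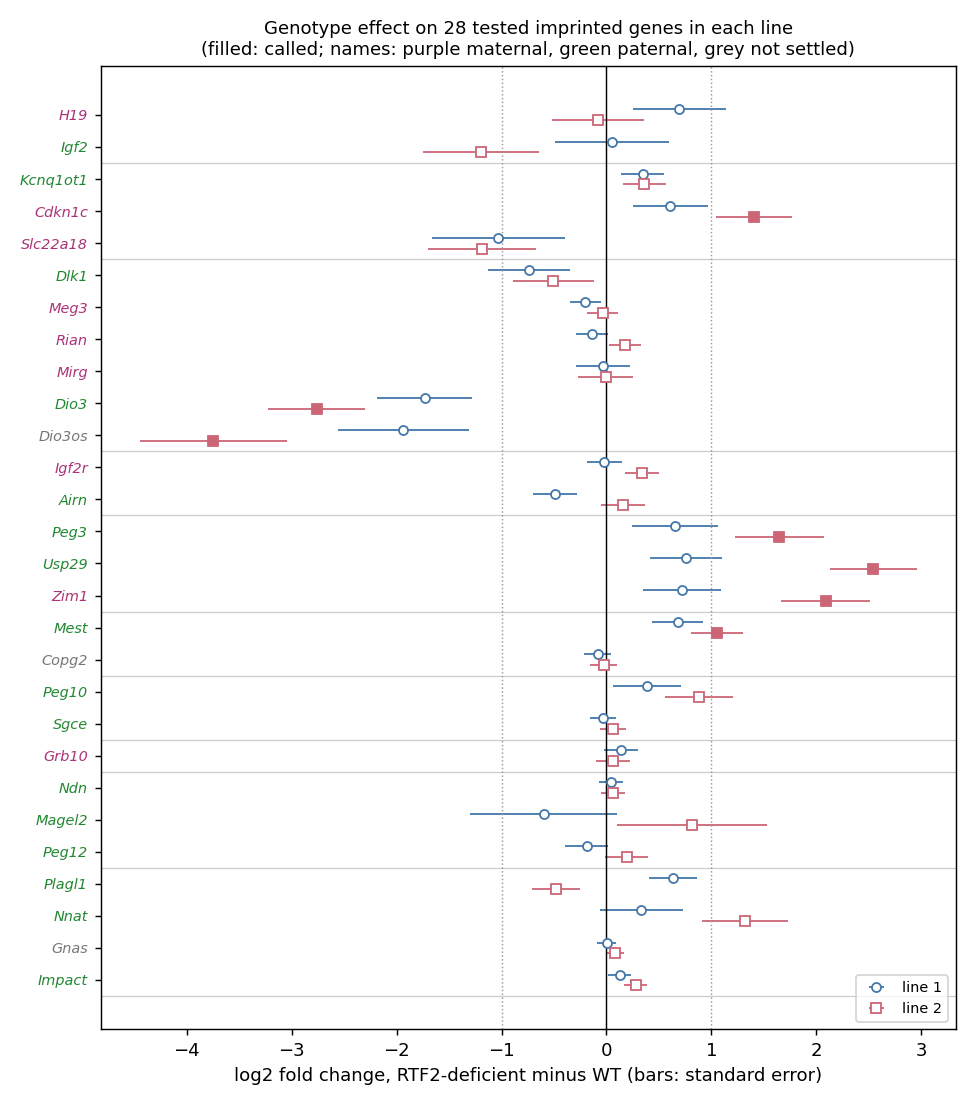
Log2 fold change (RTF2-deficient minus WT) with its standard error for the 28 tested imprinted genes, in line 1 (circles) and line 2 (squares), grouped by cluster; filled symbols were called. All 7 called values are in line 2, with Dio3 and Dio3os below 0 and Cdkn1c, Peg3, Usp29, Zim1 and Mest above 0.

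In the Dlk1-Dio3 cluster on chromosome 12, the genes called over both lines were the 2 at the distal end. Dio3 (chr12:110279230-110281097) encodes deiodinase type 3, the selenoenzyme that inactivates thyroid hormone. It stood at 4.90, 4.21 and 2.22 CPM in WT line 1 and at 1.77, 0.834 and 0.805 in RTF2-deficient line 1. The line 2 values were 3.93, 11.1 and 5.46 CPM in WT and 0.842, 0.975 and 1.198 in RTF2-deficient MEFs. Every RTF2-deficient library was lower than every WT library, which held for 4.41% of all genes tested, while the opposite held for 1.56% of all genes and for no imprinted gene. The log2 fold change was -2.25 (SE 0.35, edgeR adjusted p = 0.00136), or 4.75-fold lower.

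Dio3os, the noncoding RNA that starts 1161 bases from the Dio3 gene on the other strand, moved with it at a far lower level. It had 31, 19 and 16 counts in WT line 1 and 10, 3 and 4 in RTF2-deficient line 1. Line 2 had 21, 49 and 35 counts in WT and 0, 2 and 5 in RTF2-deficient MEFs. The groups did not overlap in either line, as for Dio3, and 6.42% of all genes were lower without overlap in both lines. Dio3os had a log2 fold change of -2.74 (SE 0.51, edgeR adjusted p = 0.0043), and with few counts its size is uncertain. Both genes were called by edgeR in every fit that left out 1 of the 12 libraries, with log2 fold changes of -2.52 to -1.95 for Dio3 and -3.24 to -2.44 for Dio3os.

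The rest of the cluster did not pass over both lines. Dlk1, the paternally expressed gene at its other end, was at 83.0, 50.8 and 39.1 CPM in WT line 1, 57.7, 22.0 and 24.2 in RTF2-deficient line 1, 55.7, 59.8 and 74.1 in WT line 2 and 30.9, 41.9 and 60.8 in RTF2-deficient line 2. The groups overlapped in both lines, and the log2 fold change was -0.62 (SE 0.27, edgeR adjusted p = 0.152). In line 1, where same-numbered libraries deviated together, Dlk1 was lower in 3 of 3 same-numbered pairs, and an edgeR fit of the 6 line 1 libraries with the replicate number as a block gave -0.80 (adjusted p = 0.00103) for Dlk1 and -0.20 (adjusted p = 0.00703) for Meg3, both past the adjusted p and short of the fold threshold. Over both lines the maternally expressed noncoding RNAs lay near 0, with log2 fold changes of -0.12 (SE 0.10) for Meg3, 0.02 (SE 0.11) for Rian, the host of many small nucleolar RNAs, and -0.02 (SE 0.18) for Mirg, a host of microRNAs. Their edgeR adjusted p-values were 0.476, 0.931 and 0.958, and the signs of Rian and Mirg turned under other settings. Rtl1, the retrotransposon-derived placental gene, was below the filter. The ratio of Meg3 to Dlk1 had a median of 0.701 in WT line 1 and 1.42 in RTF2-deficient line 1, and of 0.436 and 0.693 in line 2, with groups that overlapped in both, and in line 1 it was higher in 3 of 3 same-numbered pairs. The ratio of Rian to Dlk1 was at 2.84 to 5.80 in WT and 4.04 to 8.64 in RTF2-deficient line 1, which overlap, and it was higher in 3 of 3 same-numbered pairs. In line 2 it was at 1.89 to 2.67 in WT and 2.83 to 4.65 in RTF2-deficient MEFs, which do not overlap. These ratios were not tested. Of 58 microRNA hairpin genes listed between Dlk1 and Dio3, 55 were in the table with 27 counts in all, so the microRNAs were not measured in these libraries.

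In the H19-Igf2 cluster on chromosome 7, neither gene was called. H19, the maternally expressed RNA, was at 418.9, 151.8 and 236.6 CPM in WT line 1 and 678.9, 231.9 and 395.2 in RTF2-deficient line 1. The line 2 values were 188.4, 277.2 and 347.7 CPM in WT and 166.3, 279.0 and 325.9 in RTF2-deficient MEFs, so the groups overlapped in both lines. Igf2, the paternally expressed growth factor, was at 50.6, 13.7 and 39.7 CPM in WT line 1 and 39.8, 22.3 and 45.7 in RTF2-deficient line 1. In line 2 it was at 19.4, 45.4 and 84.6 CPM in WT and 16.9, 29.8 and 18.6 in RTF2-deficient MEFs, again with overlap. The log2 fold changes were 0.31 (SE 0.32, edgeR adjusted p = 0.56) for H19 and -0.57 (SE 0.42, edgeR adjusted p = 0.398) for Igf2. When 1 library was left out, H19 ranged from 0.06 to 0.47 and Igf2 from -0.81 to -0.22. By line, Igf2 was at 0.05 in line 1 and -1.19 in line 2. The ratio of H19 to Igf2 had a median of 8.28 in WT line 1, 10.4 in RTF2-deficient line 1, 6.11 in WT line 2 and 9.82 in RTF2-deficient line 2, and its ranges overlapped within both lines. Igf2 and H19 were among the most variable of the 28 between replicates of a group, with within-group SDs of 0.81 and 0.63 on the log2 CPM scale. In line 1, H19 was higher in 3 of 3 same-numbered pairs, and the edgeR fit with the replicate number as a block gave 0.68 (adjusted p = 1.43e-05) for H19 and 0.14 (adjusted p = 0.541) for Igf2.

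**Figure D3:**
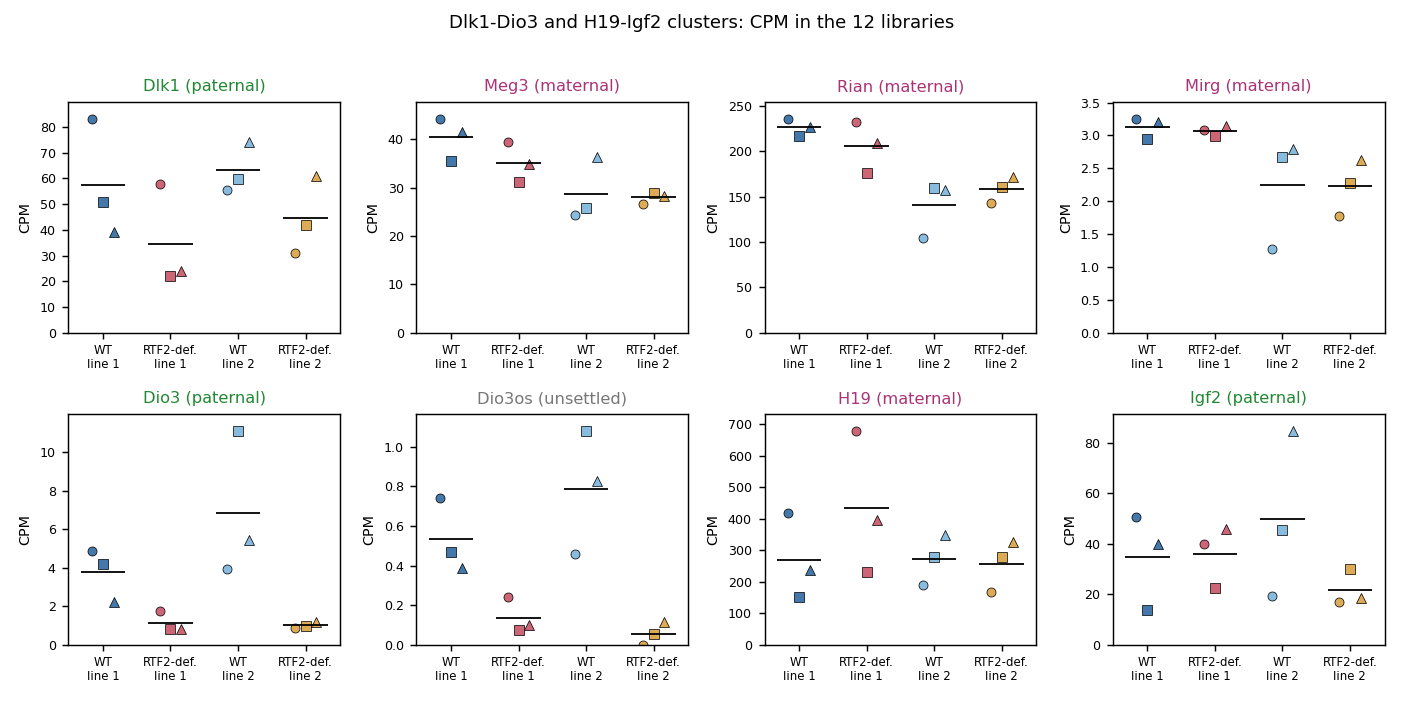
CPM of 8 genes of the Dlk1-Dio3 and H19-Igf2 clusters in the 12 libraries (circle, square and triangle: replicates 1, 2 and 3; bar: group mean; axes start at 0). Dio3 and Dio3os sit lower in every RTF2-deficient library than in every WT library, while the groups overlap for the other 6 genes.

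In the Peg3 cluster on chromosome 7 all 3 genes rose. Peg3, a zinc finger gene, was at 53.7, 38.9 and 19.3 CPM in WT line 1 and 99.8, 47.2 and 29.2 in RTF2-deficient line 1. In line 2 it was at 11.7, 11.2 and 10.9 CPM in WT and 39.6, 34.2 and 32.2 in RTF2-deficient MEFs. The groups overlapped in line 1 and did not in line 2. The log2 fold change over both lines was 1.15 (SE 0.32, edgeR adjusted p = 0.0367), and the call was lost, with log2 fold changes of 0.954 to 1.14 and an edgeR adjusted p of 0.0521 to 0.0891, when replicate 3 of WT line 1, replicate 1 of RTF2-deficient line 1 or any of the 6 libraries of line 2 was left out. Without the line term Peg3 was at 0.955 with an edgeR adjusted p of 0.239, also not called.

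Usp29, a ubiquitin protease gene that shares the start region printed above with Peg3, had 20, 24 and 16 counts in WT line 1 and 47, 29 and 26 in RTF2-deficient line 1. Line 2 had 2, 7 and 5 counts in WT and 29, 24 and 25 in RTF2-deficient MEFs. It was higher without overlap in both lines, as was Mest, against 3.62% of all genes. The log2 fold change was 1.495 (SE 0.36, edgeR adjusted p = 0.0175), and the call held without any 1 library. With the replicate number as a block over both lines it was at 1.49 with an edgeR adjusted p of 0.0625. Without the line term it was at 1.295 with an edgeR adjusted p of 0.117, so both settings ended the call. The block also pairs line 2 libraries by number, although these did not all correlate (-0.587 to 0.17).

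Zim1, the maternally expressed zinc finger gene beside Peg3, was at 5.11, 2.58 and 2.63 CPM in WT line 1 and 9.07, 4.02 and 3.90 in RTF2-deficient line 1. In line 2 it was at 0.369, 0.375 and 0.590 CPM in WT and 1.73, 1.69 and 2.26 in RTF2-deficient MEFs. The groups overlapped in line 1 and did not in line 2. Zim1 had a log2 fold change of 1.32 (SE 0.34, edgeR adjusted p = 0.0231), and leaving out replicate 1 of RTF2-deficient line 1, replicate 2 of WT line 2 or replicate 3 of WT line 2 gave 1.18, 1.19 and 1.32 with edgeR adjusted p of 0.0578, 0.057 and 0.0541. The fit without the line term gave 0.963 with an edgeR adjusted p of 0.422, which ended the call too. A paternally and a maternally expressed gene of the cluster thus had higher values together, and the ratio of Peg3 to Zim1 had a median of 10.5 in WT line 1 and 11 in RTF2-deficient line 1, and of 29.9 and 20.2 in line 2.

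Mest, a paternally expressed gene of the alpha/beta hydrolase fold, was at 54.0, 45.9 and 42.2 CPM in WT line 1 and 86.1, 82.9 and 58.2 in RTF2-deficient line 1. Line 2 stood at 8.80, 18.9 and 11.4 CPM in WT and 30.3, 25.1 and 25.7 in RTF2-deficient MEFs. RTF2-deficient libraries were higher without overlap in both lines. Mest had a log2 fold change of 0.86 (SE 0.18, edgeR adjusted p = 0.00743), past the adjusted p and short of the fold threshold. Copg2, a coat protein gene whose end overlaps that of Mest by 913 bases on the other strand, had a value of -0.06 (SE 0.09).

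Cdkn1c, the maternally expressed inhibitor of cyclin-dependent kinases known as p57, was at 17.1, 34.2 and 21.5 CPM in WT line 1 and 25.7, 49.9 and 35.4 in RTF2-deficient line 1. WT line 2 stood at 14.3, 25.7 and 16.3 CPM and RTF2-deficient line 2 at 68.0, 49.8 and 31.2. The groups overlapped in line 1 and not in line 2. The log2 fold change was 1.01 (SE 0.27, edgeR adjusted p = 0.0306), at the edge of the fold threshold. The call was lost, with log2 fold changes of 0.834 to 1.01 and an edgeR adjusted p of 0.0508 to 0.0772, on leaving out replicate 1 or 3 of either WT line, replicate 2 of RTF2-deficient line 1, or replicate 1 or 2 of RTF2-deficient line 2. With the replicate number as a block it was at 0.989 (edgeR adjusted p = 0.0276), short of the fold threshold, and that block has the limit given for Usp29. The other tested genes of its cluster in the fixed list were not called. They had log2 fold changes of 0.35 (SE 0.14, edgeR adjusted p = 0.119) for Kcnq1ot1 and -1.13 (SE 0.38, edgeR adjusted p = 0.0726) for Slc22a18, a transporter gene with 2 to 37 counts per library. Kcnq1, which is outside the list, is given further below.

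The remaining 12 tested genes were not called over both lines. They had log2 fold changes between -0.17 and 0.82, the highest being those of Nnat (0.82, SE 0.31, edgeR adjusted p = 0.11), a membrane proteolipid gene, and Peg10 (0.63, SE 0.23, edgeR adjusted p = 0.0969), a retrotransposon-derived gene. Those at the highest levels had values close to 0, with 0.10 (SE 0.11) for Grb10, 0.04 (SE 0.06) for Gnas and 0.16 (SE 0.12) for Igf2r. Gnas and Nnat lie on chromosome 2 with Rtf2, 1.81 and 14.9 Mb from it. In the Prader-Willi region, Ndn was at 0.05 (SE 0.08), Peg12 at 0.00 (SE 0.15) and Magel2 at 0.09 (SE 0.52), and outside it Impact was at 0.20 (SE 0.08), Plagl1 at 0.08 (SE 0.23) and Sgce at 0.02 (SE 0.08). Airn, the noncoding RNA across from Igf2r, had a value of -0.17 (SE 0.17), and it overlaps Igf2r by 28396 bases. Whether the counting used strand is not given in the sources used here, so reads from overlapping genes on opposite strands cannot be told apart.

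The next comparisons took each line alone. In line 1 no imprinted gene was called by edgeR, against 0.918% of all genes, while 6 had an unadjusted p under 0.05 and DESeq2 called 1, Dio3. The log2 fold changes in line 1 were -1.73 (SE 0.45, edgeR adjusted p = 0.0705) for Dio3, -1.94 (SE 0.62, 0.144) for Dio3os, 0.66 (SE 0.41, 0.57) for Peg3, 0.76 (SE 0.34, 0.352) for Usp29, 0.72 (SE 0.37, 0.443) for Zim1 and 0.68 (SE 0.24, 0.206) for Mest. Libraries of line 1 with the same replicate number deviated together, and an edgeR fit of its 6 libraries with the replicate number as a block gave a smaller error. It called Dio3 (-1.74, adjusted p = 0.000522) and Dio3os (-1.96, adjusted p = 0.00514), against 2.16% of all genes. By the adjusted p alone, 16 of 26 imprinted genes passed in this paired edgeR fit, against 29.1% of all genes. The 5 lower were Dlk1, Meg3, Airn, Dio3 and Dio3os, and the 11 higher were Cdkn1c, Grb10, H19, Impact, Mest, Nnat, Peg3, Plagl1, Zim1, Kcnq1ot1 and Peg10.

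In line 2, 7 of 28 imprinted genes were called by edgeR, against 3.78% of all genes. Dio3 (-2.76, SE 0.46) and Dio3os (-3.75, SE 0.70) fell, and Usp29 (2.54, SE 0.41), Zim1 (2.09, SE 0.42), Peg3 (1.65, SE 0.43), Cdkn1c (1.41, SE 0.36) and Mest (1.05, SE 0.25) rose. Their edgeR adjusted p-values ran from 0.00275 for Usp29 to 0.0281 for Peg3. The number was 4 (Dio3, Dio3os, Usp29 and Zim1) when replicate 1 or 3 of WT or replicate 1 of RTF2-deficient MEFs was left out, and 9 when replicate 3 of RTF2-deficient MEFs was. Of all genes, 3.01%, 3.12% and 2.52% were called in the 3 fits with 4, and 6.14% in the fit with 9. In those 3 fits Cdkn1c was at 1.11 to 1.32, Mest at 0.839 to 0.972 and Peg3 at 1.56 to 1.68. Peg3 was also not called on leaving out replicate 2 of either genotype, at 1.65 and 1.68 with edgeR adjusted p of 0.0731 and 0.0732. Leaving out replicate 2 of RTF2-deficient MEFs also ended the call of Cdkn1c, at 1.41 with an edgeR adjusted p of 0.0792. In the main edgeR fit the difference of the genotype effect between the lines was not called for any imprinted gene, against 1.05% of all genes. DESeq2 called 1, Plagl1, against 1.7% of all genes. With the replicate number as a block edgeR called Peg3 and Zim1, against 0.778%, though same-numbered line 2 libraries did not all correlate. In the main fit 3 had an unadjusted p under 0.05. Those 3 were Usp29 (1.79, SE 0.54, edgeR adjusted p = 0.203), Plagl1 (-1.11, SE 0.32, 0.187) and Zim1 (1.37, SE 0.56, 0.476).

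The Peg3 cluster and Mest also differed between WT MEFs of the 2 mothers. In WT line 2 minus WT line 1, 5 of 28 imprinted genes were called by edgeR, against 6.76% of all genes, with 4 lower against 2.87% and 1 higher against 3.89%. Zim1 was 7.72-fold lower (log2 -2.95, SE 0.42, edgeR adjusted p = 0.000977), Usp29 4.53-fold lower (-2.18, SE 0.42, 0.00515), Mest 3.63-fold lower (-1.86, SE 0.25, 0.000647) and Peg3 3.30-fold lower (-1.72, SE 0.43, 0.0209). Peg3 was not called, at -1.77 to -1.38 with an edgeR adjusted p of 0.0511 to 0.0708, without WT line 1 replicate 1 or 2 or any of the 3 WT line 2 libraries. This comparison and that of genotype in line 2 share the WT line 2 libraries, in which Peg3, Usp29, Zim1 and Mest were the lowest of the 4 groups in every library. The sex difference and the interferon-stimulated genes given above differ between the same libraries. So did cell type markers, of which edgeR called Sox2 (group means of 2.41 CPM in WT line 1 and 9.51 in WT line 2) and Cd68 (1.66 and 6.72) higher and Tubb3 (50.4 and 15.1) and the muscle gene Myod1 (0.198 to 2.91 CPM and 0 to 0.0236 CPM) lower in WT line 2. The other tested blood and muscle markers, Csf1r and Des, went the other way at -0.52 and 0.37 without passing. Of 10 fibroblast markers, 6 were lower and 4 higher in WT line 2, with log2 differences of -0.94 to 1.41. Among them Col1a2, Pdgfrb and Thy1 passed the adjusted p alone, at -0.63, -0.94 and -0.62, and none of the higher ones passed. The part of all these in the imprinted genes' values was not tested.

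Plagl1, a paternally expressed zinc finger gene, was the 1 gene higher in WT line 2, at 214.4, 97.9 and 133.6 CPM against 57.4, 52.9 and 53.8 in WT line 1. The RTF2-deficient groups stood between, at 90.0, 75.4 and 89.5 CPM in line 1 and 87.2, 113.9 and 118.9 in line 2. The log2 difference of the WT lines was 1.44 (SE 0.23, edgeR adjusted p = 0.00206). Same-numbered libraries of the WT lines also deviated together, and the paired edgeR fit of the 6 WT libraries called 7, against 8.06% of all genes, adding Nnat (-1.41, adjusted p = 0.00387) and Slc22a18 (1.37, adjusted p = 0.0445). Between the RTF2-deficient lines Mest was the 1 gene called by edgeR, at -1.49 (SE 0.25, edgeR adjusted p = 0.0108), against 1.28% of all genes, and it was at -1.43 with an adjusted p of 0.0664 without RTF2-deficient line 2 replicate 2. DESeq2 called Zim1 as well (-1.59, adjusted p = 0.00221), and so did edgeR without WT line 1 replicate 1. Between these lines edgeR also called the muscle gene Des higher in line 2 (1.855), while Myod1 was at -2.805 without passing. The 10 interferon-stimulated genes had a median of 4.33, none past the adjusted p. The part of these in the imprinted genes' values was not tested.

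**Figure D4:**
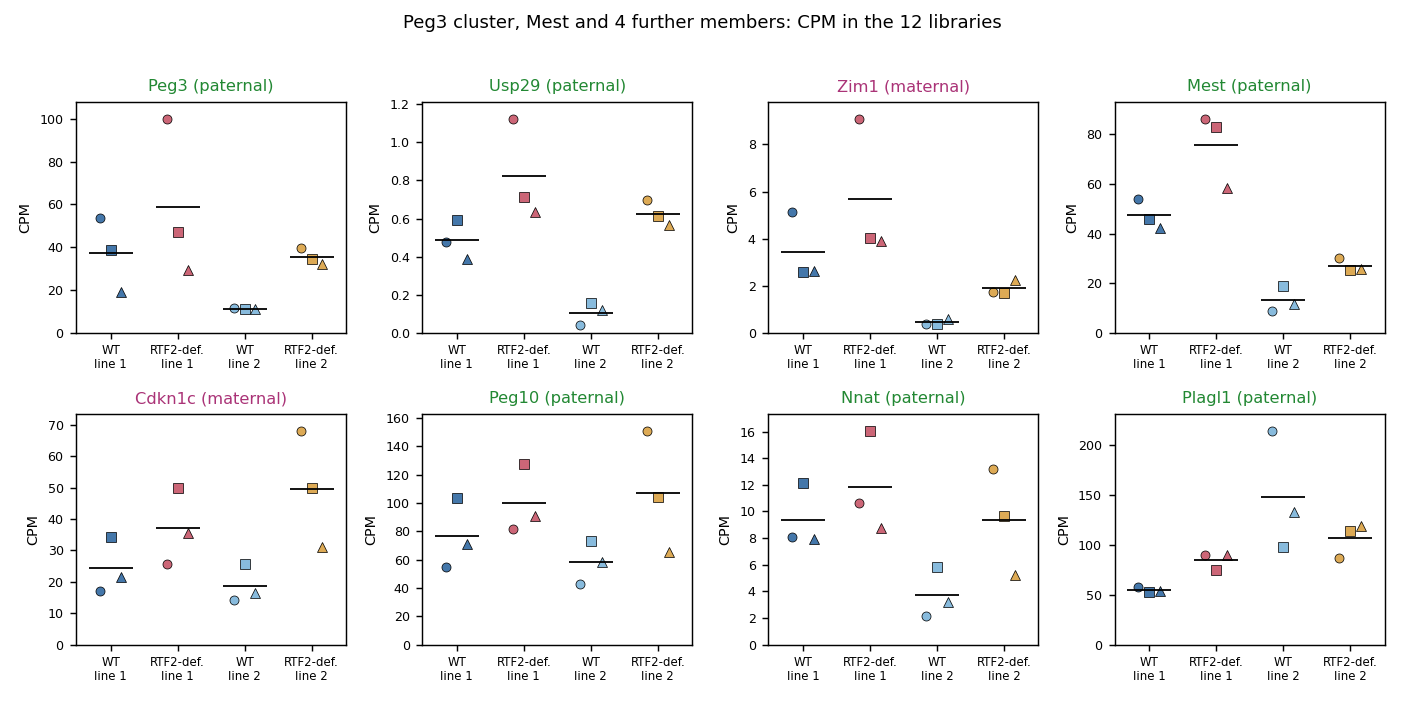
CPM of Peg3, Usp29, Zim1, Mest, Cdkn1c, Peg10, Nnat and Plagl1 in the 12 libraries (circle, square and triangle: replicates 1, 2 and 3; bar: group mean; axes start at 0). The Peg3 cluster and Mest are lowest in WT line 2, where Peg3 is at 10.9 to 11.7, and Plagl1 is highest there, at up to 214.4.

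Values of the imprinted genes were spread widely between the replicates of a group, and the source of this spread was not tested. The median within-group SD of log2 CPM was 0.327 over the 28, against 0.179 over all genes tested, and 0.281 against 0.136 among the 19 imprinted genes and 9281 genes at a mean of at least 10 CPM. The most variable were Igf2, H19 and Magel2 (0.609), and the least were Gnas (0.0766) and Impact (0.139), a translational regulator. The same library was the highest of its 3 replicates for Cdkn1c, Nnat and Peg10 in all 4 groups, namely replicate 2 in both groups of line 1 and in WT line 2 and replicate 1 in RTF2-deficient line 2. This also held for Gnas and Impact, so 4 of the 27 other imprinted genes followed Cdkn1c, against 6.85% of all genes. In bulk RNA a change in the share of cells that express a gene and a change in its RNA per cell cannot be told apart.

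**Figure D5:**
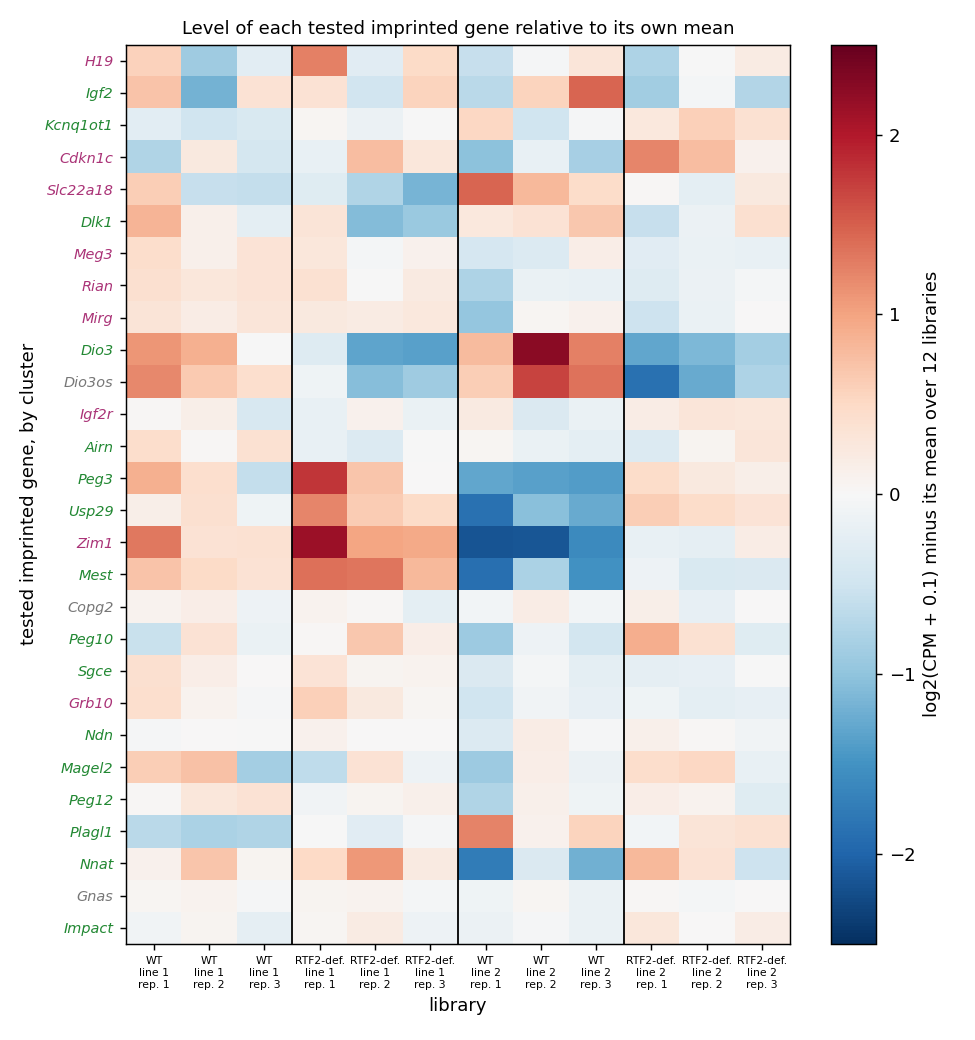
Each tested imprinted gene (rows, by cluster) in the 12 libraries (columns), as log2(CPM + 0.1) minus the gene's mean over the libraries, from blue (lower) to red (higher). Dio3 and Dio3os are low in all 6 RTF2-deficient libraries, Peg3, Usp29, Zim1 and Mest are lowest in WT line 2, and the rows of Gnas, Ndn and Copg2 are nearly even.

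Of 20 tested genes that set or keep imprints, none was called by edgeR over both lines. They included 7 with an unadjusted p under 0.05, of which 6 passed the adjusted p alone, against 13.2% of all genes, and DESeq2 called none. Dnmt3a, the DNA methyltransferase that sets imprints in germ cells, was higher by 0.39 on the log2 scale (SE 0.07, edgeR adjusted p = 0.00247) and Tet3 by 0.40 (SE 0.11, 0.0352). Setdb1, Atrx, Kdm1b and Ehmt2 were lower by that test, with log2 fold changes of -0.24 to -0.16. Of 34 further imprinted genes tested, 1 was called against 1.72% of all genes, namely Kcnq1 (1.79, SE 0.56, edgeR adjusted p = 0.0498), the potassium channel gene that Kcnq1ot1 crosses on the other strand, at 0 to 22 counts per library, and DESeq2 called Kcnq1 and Zdbf2. Of 10 tested genes that flank the clusters, none was called by edgeR or DESeq2, and 1 had an unadjusted p under 0.05.

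In the insulin-like growth factor system on which Igf2, Igf2r, H19 and Grb10 act, 15 of 16 tested genes had log2 fold changes above 0, against 7187 of 14263 over all genes. The median was 0.34 against 0.00 over all genes. By the adjusted p alone 5 of the 16 passed, against 13.2% of all genes. In line 1 none of the 16 passed it, against 359 lower and 97 higher of 14263 genes. Over both lines 2 of the 16 were called, both higher, against 0.505% of all genes. They were Igfbp5 (1.35, SE 0.41, edgeR adjusted p = 0.0486), a binding protein, and Pappa (1.197, SE 0.29, 0.0185), a protease that releases the factor from its binding proteins. Pappa was at 174.2, 127.1 and 82.6 CPM in WT line 1, 227.6, 185.7 and 147.5 in RTF2-deficient line 1, 54.1, 25.6 and 29.6 in WT line 2 and 121.8, 134.1 and 139.2 in RTF2-deficient line 2. Like Peg3 and Mest, it was lower in WT line 2 than in WT line 1 (-1.81, SE 0.31, edgeR adjusted p = 0.00303), and so was Igfbp5 (-2.63, SE 0.40, 0.00145). Neither was called in line 1, at 0.38 (SE 0.38, edgeR adjusted p = 0.764) for Igfbp5 and 0.55 (SE 0.30, 0.492) for Pappa, and both were called in line 2, at 2.34 (SE 0.40, 0.00378) and 1.85 (SE 0.31, 0.00364), where WT MEFs are low. The difference between the lines was not called, with edgeR adjusted p of 0.151 and 0.277.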

How the data were processed

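The authors deposited whole-number counts for each gene under its Entrez identifier, with a column for every library. According to the methods, Salmon with UCSC gene models and tximport made such counts, whereas HTSeq and mm10 appear in the submitters' processing notes. Strand use is not given in the sources used here. Symbols, positions and start regions came from RefSeq (GRCm38.p6), which held 24045 of 24100 identifiers, and exon lengths from GENCODE M21. Genes passing filterByExpr (14263) were normalized by TMM and tested in R 4.3.3 with edgeR 4.0.16 (glmQLFit and glmQLFTest, terms for line and genotype, or a layout of the 4 groups). The standard error was the absolute coefficient over the root of F. DESeq2 1.42.0 was an alternative. The fit was also run on counts simulated with the dispersions of these data, as independent libraries without a line effect. Same-numbered libraries correlated at 0.43 to 0.625 in line 1 and 0.305 to 0.426 between the WT lines, so paired fits were added after seeing the data. All 32 genes are named by rule, and they and the other lists were chosen with earlier results of these data known. A gene with 3 counts in the shallowest library is at 0.077 CPM, which covers counting error only.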

Additional observations from a re-analysis of the deposited data

How the results depend on the processing

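Over both lines, 6 imprinted genes were called, and 3 without the line term (not Peg3, Usp29 or Zim1), 0 with triplicates summed, 1 without the WT line 2 libraries and 3 to 6 when 1 library was left out. Only Dio3, Dio3os and Usp29 were called without WT line 2 replicate 3. For line 1, DESeq2 gave 1, the paired fit 2 and leave-one-out 0 to 1 (Dio3, without WT line 2 replicate 2). Line 2 gave 4 to 9 when 1 library was left out, against 2.21% to 6.14% of all genes. When line 2 was fitted alone, edgeR did not call Cdkn1c (adjusted p = 0.0526) or Mest (0.067). The difference between lines gave 1 by DESeq2, 2 with the replicate block (Peg3 and Zim1) and 0 to 1 by leave-one-out (Plagl1, without WT line 2 replicate 2). The WT lines gave 4 to 6, and the RTF2-deficient lines 2 by DESeq2 (Mest and Zim1) and 0 to 2 by leave-one-out. The replicate block over both lines called 4 (Dio3, Dio3os, Peg3 and Zim1). In line 2 and between the RTF2-deficient lines same-numbered libraries did not all correlate (-0.587 to 0.17 and -0.381 to 0.0867). Each RTF2-deficient line 2 library correlated best with another number (0.367 to 0.654 with WT line 2 and 0.375 to 0.514 with RTF2-deficient line 1). No paired fit of those libraries alone was therefore made. The replicate block still took those numbers as pairs, which limits its values that use RTF2-deficient line 2. The block changed no other count by over 1.5 times. Requiring 1 CPM in 6 libraries removed Usp29 and Dio3os and left 4 called. RLE and upper-quartile scaling called the same 6 genes. The cause of these differences was not tested, except that summing and leaving out libraries lowers the number of samples.

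The median of maternally expressed genes was -0.019 without the WT line 2 libraries. Signs that turned all belong to genes that were not called. Without those libraries they were Igf2 (0.0533), Igf2r (-0.019), Sgce (-0.031), Magel2 (-0.60), Peg12 (-0.19) and Rian (-0.14). Without the line term they were Plagl1 (-0.0857), Peg12 (-0.0114) and Rian (-0.00847), and with the replicate block Mirg (0.0077). When 1 library was left out, Magel2 ranged from -0.14 to 0.36, Mirg from -0.139 to 0.0659, Peg12 from -0.109 to 0.0663, Plagl1 from -0.00732 to 0.30, Rian from -0.0688 to 0.0837 and Sgce from -0.0148 to 0.0835.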
